A study of Homo sapiens with 6 samples.

Results

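The mRNAs of 9 enzymes and enzyme subunits of the tricarboxylic acid (TCA) cycle, CS, IDH3A, IDH3B, OGDH, DLST, SUCLG1, SUCLA2, FH and MDH2, were examined in K562 cells. They were chosen by name, as the rows of the raw count table whose Ensembl identifier belongs to one of these genes, which gave 9 of 61661 identifiers. K562 is an established human line from a chronic myeloid leukemia in blast crisis, labelled as derived from pleural effusion, and was harvested in logarithmic growth in RPMI1640 with 10% FBS. The 3 groups, each with 2 libraries, were shCTR (genotype WT in the labels), shMETTL3 (METTL3 knockdown) and shMETTL14 (METTL14 knockdown), and no other treatment or time point was labelled. METTL3 and METTL14 form the enzyme that writes N6-methyladenosine (m6A) into mRNA. The study's methods describe the shCTR and shMETTL3 lines as stable lentiviral lines (pLent-U6-GFP-puro), selected with puromycin, with a nonsense sequence in the control virus. Making of the shMETTL14 line is not given in the sources used here. No second shRNA or line per target is labelled. The labels do not say whether replicates were separate cultures, and p-values measure only the spread between these libraries.

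The TCA cycle runs in the mitochondrial matrix, where citrate synthase joins acetyl-CoA to oxaloacetate and the later enzymes oxidize the carbon while loading NADH and FADH2 for the respiratory chain. Isocitrate dehydrogenase and the 2-oxoglutarate dehydrogenase complex are its classic control points, and succinyl-CoA made there also feeds heme synthesis in erythroid cells. All of these enzymes are encoded in the nucleus.

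Only CS and IDH3B passed the test in either knockdown, so their sequences are shown. GGACT is a frequent core of the m6A consensus. The windows of 21 bases below carry it in capitals and are written 5′ to 3′ as the DNA letters of GENCODE release 29 coding transcripts (GRCh38). The coordinates are those of the 5 motif bases, on the minus strand in both genes.
CS, exon 7 of 11, coding, chr12:56276078-56276082: tctaacctGGACTggtctcac
CS, exon 8 of 11, coding, chr12:56275012-56275016: ctctccatGGACTggcaaatc
CS, exon 11 of 11, coding, chr12:56273098-56273102: aagtttgtGGACTctaagtca
CS, exon 11 of 11, 3′ UTR, chr12:56272834-56272838: gatgaccaGGACTaatgcatg
CS, exon 11 of 11, 3′ UTR, chr12:56272677-56272681: gcaaaccaGGACTctgcccct
IDH3B, exon 6 of 13, coding, chr20:2660816-2660820: cgtaagttGGACTtatttgcc
IDH3B, exon 12 of 13, coding, chr20:2658829-2658833: caaggtgcGGACTcgagacat

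The motif was searched on the sense strand of 1 coding transcript per gene, the one with the longest coding region. Other transcripts were not searched, and the counts can depend on this choice. The transcript of IDH3B had 1279 bases with the coding region from base 2 to 1165, so little UTR was searched. That of OGDH had 3309 bases, against 4181 in its longest transcript. CS held 5 matches (1.68 per kilobase) and IDH3B held 2 (1.56 per kilobase). Among 12512 tested genes, the median was 0.946 per kilobase (quartiles 0.567 and 1.42), and 90.8% held at least 1 match. Both genes thus lay above the upper quartile, and so did OGDH with 7 matches (2.12 per kilobase) and SUCLA2 with 7 (3.18 per kilobase), neither of which passed the test in any comparison. IDH3A and MDH2 held 2 matches each, DLST and FH held 1 each, and SUCLG1 held 0. A match is not a methylated site, and m6A was not measured in these libraries.

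The bases upstream of the RefSeq start of CS and IDH3B (GRCh38.p14, minus strand) are shown outside the exons of the gene. Capitals mark the matches to 5 promoter motifs, searched on both strands over 250 bases before and 50 after the start.
CS, chr12:56300393-56300580: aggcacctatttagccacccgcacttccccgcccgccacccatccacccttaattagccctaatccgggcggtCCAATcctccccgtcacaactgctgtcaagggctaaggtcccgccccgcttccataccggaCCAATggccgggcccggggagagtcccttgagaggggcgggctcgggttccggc
IDH3B, chr20:2664220-2664466: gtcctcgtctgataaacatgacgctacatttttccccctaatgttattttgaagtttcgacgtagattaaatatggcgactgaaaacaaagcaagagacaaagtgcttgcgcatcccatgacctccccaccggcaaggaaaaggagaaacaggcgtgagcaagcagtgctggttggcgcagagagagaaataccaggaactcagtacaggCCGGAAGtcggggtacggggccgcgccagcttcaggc

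CS carried the CCAAT box (CCAAT) beginning 177 and 116 bases before the start, and IDH3B carried the ETS motif (CCGGAAG) beginning 40 bases before it. An exon of an antisense RNA on the plus strand also lies in the window of IDH3B. The table held promoters of 8 of the 9 genes. CCAAT was found in 4 of these 8 (CS, SUCLG1, SUCLA2 and FH) and in 34.6% of 35116 promoters of this length. The ETS motif was found in 3 of 8 (IDH3B, DLST and MDH2) and in 10.3% of all. NRF1 (GCGCATGCG), ERR (TCAAGGTCA) and YY1 (AAGATGGCG) had no match in the 8 windows, against 1.92%, 0.353% and 1.75% of all promoters.

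Library totals ran from 19292574 to 20115304 counts. In the order shCTR, shMETTL3 and shMETTL14, METTL3 was counted at 1788 and 1728, 1031 and 938, and 1731 and 1498 reads, and METTL14 at 656 and 655, 752 and 710, and 375 and 404 reads. Each target was lowest in its own knockdown, and the log2 fold changes against shCTR were -0.87 for METTL3 and -0.76 for METTL14 (edgeR adjusted p = 3.44e-07 and 1.4e-05). All 11 erythroleukemia markers of K562 passed the filter on low counts, among them GATA1 at 252 to 301 CPM, the reads of a gene relative to the size of its library after scaling by the TMM method. Of 11 markers of other cell types, 6 passed. CD3E, MS4A1, CD14, CD79A and ALB were at 0 to 6 reads in every library. The summed level of this list was 404 and 416 CPM in shCTR, 298 and 307 in shMETTL3 and 460 and 441 in shMETTL14, most of it KRT8, and its part in the results was not tested. In bulk RNA, fewer cells of a type and less RNA per cell cannot be told apart.

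All 9 genes passed the filter and were measured at moderate to high levels. Levels are given in CPM, and genes are compared with each other only per kilobase of the longest annotated transcript. MDH2, malate dehydrogenase of the mitochondrion, had the highest level per kilobase, 232 ± 15.5 CPM per kilobase (SD, n = 2) in shCTR cells. It was followed by IDH3B at 101 ± 3.79, FH at 94.4 ± 5.02, CS at 87.2 ± 1.55 and SUCLG1 at 64.4 ± 2.14. The lower levels were those of DLST at 36.6 ± 0.666, OGDH at 24.1 ± 1.5, SUCLA2 at 13 ± 1.3 and IDH3A at 5.02 ± 0.372.

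Over the 6 libraries, MDH2 stayed above all others (208 to 243), and each of SUCLG1, DLST, OGDH, SUCLA2 and IDH3A kept its place below the gene before it without overlap. FH and IDH3B could not be ordered beyond their spread (86.5 to 100 and 85.2 to 104), and the ranges of IDH3B and CS (66.6 to 88.3) overlapped too, although IDH3B was above CS in each library. With the coding transcript as length, IDH3B moved above FH, and CS was above SUCLG1 in 4 of 6 libraries only, since CS was lower in the shMETTL14 libraries. With the union of exons as length, FH (72.6 to 84) lay above IDH3B (53.8 to 65.4) without overlap, so the place of IDH3B depends on the length used. That length also lowers the values themselves, in shCTR cells to a mean of 141 CPM per kilobase for MDH2 and 41.7 for CS. Both other lengths were chosen after seeing the data. MDH2 alone held 33.1% to 35.5% of the reads of the 9 genes.

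**Figure D1:**
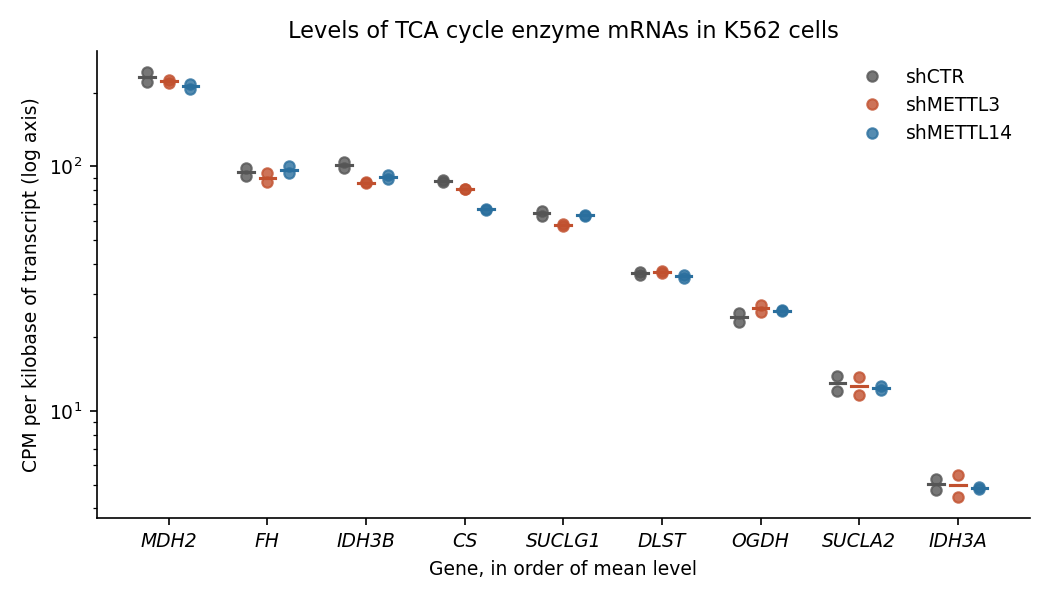
Level of each TCA cycle enzyme mRNA, in CPM per kilobase of the longest transcript (log axis), with 1 point per library and a line at the mean of each group of 2. MDH2 lies between 208 and 243 and IDH3A between 4.47 and 5.49, and for CS both shMETTL14 libraries, at 66.7 and 66.6, are the lowest.

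Compared with shCTR, 1 of the 9 genes, IDH3B, was lower in shMETTL3 cells past the threshold and 0 were higher. Over all 17686 genes tested, 16.5% passed in either direction and 7.73% were lower (edgeR's quasi-likelihood test, Benjamini-Hochberg adjusted p under 0.05). The split of 1544 higher and 1368 lower genes depended on the scaling, and was 2158 and 858 with library size alone and 1634 and 1890 with the correction for GC content and length. The median log2 fold change of the 9 was -0.07, against 0.00 over all genes, and 2 of the 9 had an unadjusted p under 0.05. In 4 of the 9, CS, IDH3B, OGDH and SUCLG1, the 2 libraries of one group lay apart from those of the other, which was so for 56.0% of all genes.

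In shMETTL14 cells 1 of the 9, CS, was lower and 0 were higher, against 6.69% of all genes in either direction and 3.26% lower (607 higher and 577 lower, or 743 and 443 with library size alone). The median was -0.05, against -0.00 over all genes. The groups did not overlap in 5 of the 9, CS, IDH3B, OGDH, DLST and MDH2, and in 48.9% of all genes. Both contrasts use the same shCTR libraries.

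Between the knockdowns, CS alone passed and was higher in shMETTL3, against 12.1% of all genes in either direction and 6.65% higher (1177 higher and 971 lower, or 1399 and 754 with library size alone). The groups did not overlap in 6 of the 9 and in 56.7% of all genes, and the median log2 difference of the 9 was 0.03. With 1 of 9 called in each comparison, the shares lay near the background of all genes. Because the 9 genes are well expressed, the share called is also given for the 8095 genes at or above the mean CPM of the lowest of them. It was 21.9%, 9.23% and 14.2% in the 3 comparisons. Against shCTR, 13.7% of these genes were lower in shMETTL3 and 5.14% in shMETTL14. Their median log2 fold changes were -0.03, -0.02 and -0.02, so they also lay slightly below 0.

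**Figure D2:**
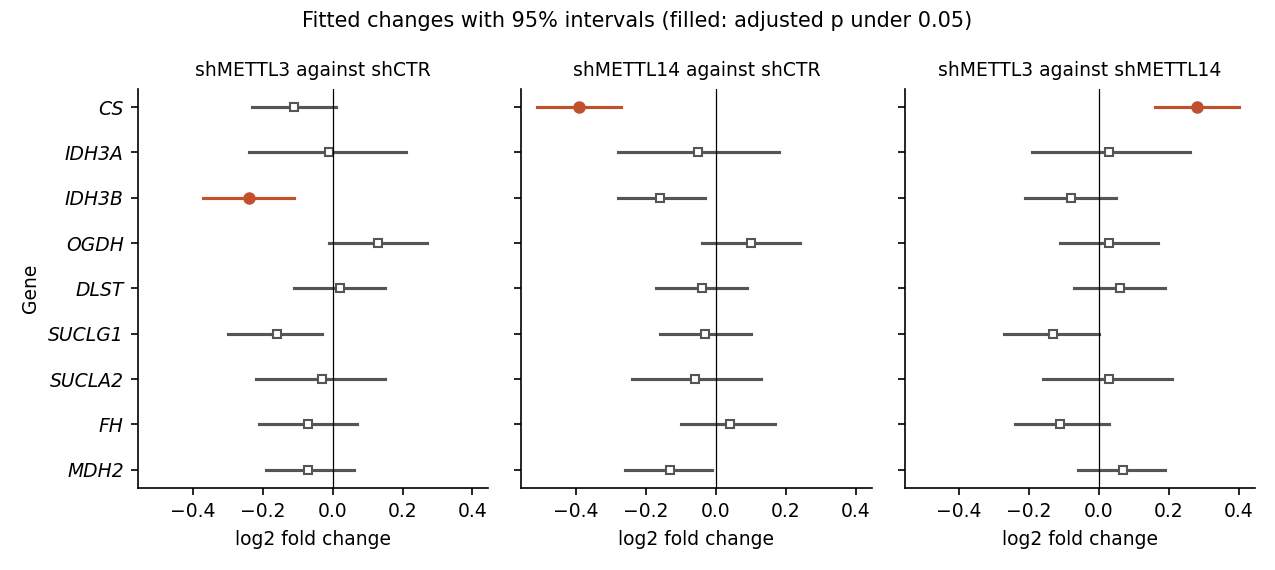
Fitted log2 fold change of each gene with its 95% interval in the 3 comparisons, filled and colored where the adjusted p was under 0.05. IDH3B at -0.24 is the one called gene for shMETTL3 and CS at -0.39 the one for shMETTL14, and CS at 0.28 is the one that differed between the knockdowns.

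CS, citrate synthase (ENSG00000062485, chr12:56271699-56300392, minus strand), makes citrate in the first step of the cycle and fell in shMETTL14 cells. Its level was 270 and 263 CPM in shCTR, 248 and 246 in shMETTL3 and 204 in both shMETTL14 libraries. The shMETTL14 libraries were thus below all others and the shMETTL3 libraries lay between, without overlap of any groups. In reads, CS had 5337 and 5042 in shCTR, 4868 and 4941 in shMETTL3 and 4004 and 3991 in shMETTL14. The log2 fold change in shMETTL14 was -0.39 (SE 0.0576, 95% interval -0.51 to -0.27, edgeR adjusted p = 0.000217), or 0.764 of the shCTR level. In shMETTL3 it was -0.11 (SE 0.0572, interval -0.23 to 0.01, edgeR adjusted p = 0.202), which did not pass. By the direct comparison, the level in shMETTL3 was 1.21 times that in shMETTL14 (log2 0.28, SE 0.0576, edgeR adjusted p = 0.00264). CS shares 220 bases of exon on its own strand with an overlapping gene listed at 0 reads in all libraries, so its count is uncertain.

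The fall of CS in shMETTL14 is described here relative to FH and MDH2. These ratios use the same CS counts as the call, so they are not separate support. They were not among the ratios planned. The log2 ratio of CS to FH, on the CPM scale, was 0.62 and 0.69 in shCTR, 0.56 and 0.66 in shMETTL3 and 0.18 and 0.27 in shMETTL14. The ratio of CS to MDH2 was -0.86 and -1.03, -0.97 and -1.01, and -1.23 and -1.18. In both ratios the shMETTL14 libraries lay below the other 4 libraries, while shMETTL3 overlapped shCTR.

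IDH3B (ENSG00000101365, chr20:2658395-2664219, minus strand), the beta subunit of NAD-linked isocitrate dehydrogenase, fell in shMETTL3 cells. Its level was 159 and 168 CPM in shCTR, 139 and 138 in shMETTL3 and 149 and 144 in shMETTL14. Both knockdowns lay below shCTR in every library, and the shMETTL3 libraries were the lowest. The log2 fold change was -0.24 in shMETTL3 (SE 0.0616, interval -0.37 to -0.11, edgeR adjusted p = 0.0119), or 0.848 of the shCTR level. In shMETTL14 it was -0.16 (SE 0.0615, edgeR adjusted p = 0.149), and the difference between the knockdowns was -0.08 (SE 0.0618, edgeR adjusted p = 0.453), so the knockdowns were not shown to differ. The call in shMETTL3 was lost without shMETTL3 replicate 1 (log2 -0.24, edgeR adjusted p = 0.0841) or replicate 2 (log2 -0.23, edgeR adjusted p = 0.13), where the lone library is assumed to vary like the others. With a correction for GC content and length, the value in shMETTL14 also passed (log2 -0.17, edgeR adjusted p = 0.0317).

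IDH3A (ENSG00000166411, chr15:78131498-78171949, plus strand), the catalytic alpha subunit of the same enzyme, was the least abundant of the 9. Its level was 21.8 and 19.6 CPM in shCTR, 22.7 and 18.4 in shMETTL3 and 20.2 and 19.9 in shMETTL14, with all groups overlapping. The log2 fold changes were -0.01 (SE 0.108) in shMETTL3 and -0.05 (SE 0.109) in shMETTL14, and their intervals reached from -0.24 to 0.21 and from -0.28 to 0.18. IDH3A shares 2608 bases of exon with ACSBG1 on the opposite strand, which had 11 to 21 reads, and strand was not stated for the counting, so its level is uncertain. The log2 ratio of IDH3A to IDH3B was -2.87 and -3.10 in shCTR, -2.62 and -2.90 in shMETTL3 and -2.89 and -2.86 in shMETTL14, which overlapped in every comparison.

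**Figure D3:**
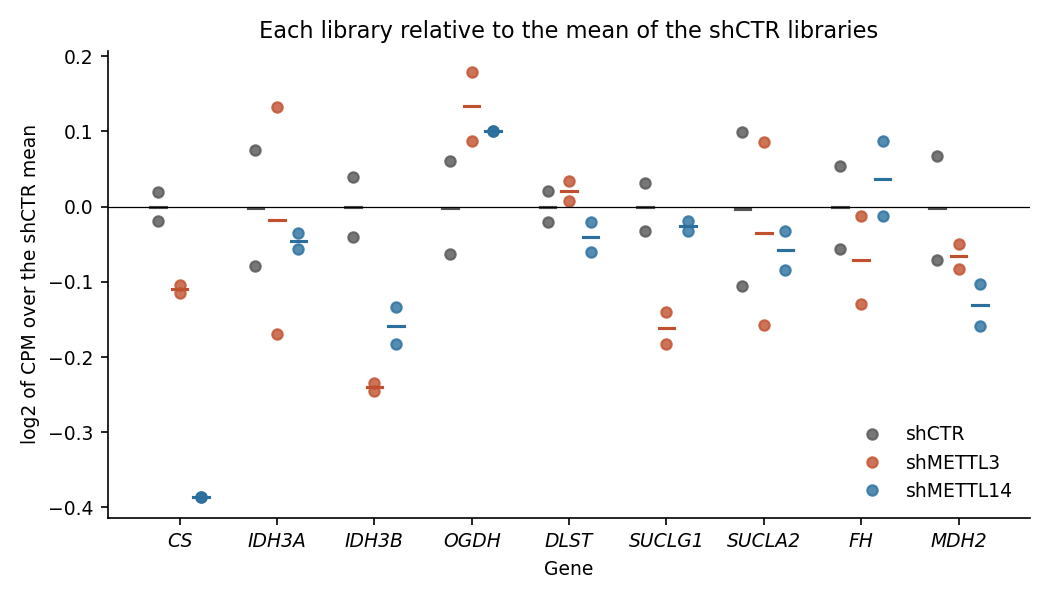
Log2 of each library's CPM over the mean of the 2 shCTR libraries, with 1 point per library and a line at each group's mean. The shMETTL14 points of CS lie lowest of all, both shMETTL3 points of IDH3B lie below its shCTR points, and the shCTR and shMETTL3 points of IDH3A and SUCLA2 spread to both sides of 0.

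OGDH (ENSG00000105953, chr7:44606572-44709066, plus strand) and DLST (ENSG00000119689, chr14:74881891-74903745, plus strand) encode the dehydrogenase and the succinyltransferase core of the 2-oxoglutarate dehydrogenase complex. OGDH was at 96.4 and 105 CPM in shCTR, 114 and 107 in shMETTL3 and 108 in both shMETTL14 libraries. The knockdown libraries were all above shCTR, by a log2 fold change of 0.13 (SE 0.0669, interval -0.01 to 0.27, edgeR adjusted p = 0.214) in shMETTL3 and 0.10 (SE 0.067, interval -0.04 to 0.24, edgeR adjusted p = 0.455) in shMETTL14, and neither passed the test. With the correction for GC content and length these values were 0.04 (edgeR adjusted p = 0.679) and 0.06, and that in shMETTL3 was 0.06 without shCTR replicate 1.

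DLST was at 102 and 105 CPM in shCTR, 104 and 106 in shMETTL3 and 99.3 and 102 in shMETTL14. Its log2 fold changes were 0.02 and -0.04, with intervals of -0.11 to 0.15 and -0.17 to 0.09. The log2 ratio of OGDH to DLST, on the CPM scale, was -0.09 and 0.00 in shCTR, 0.12 and 0.01 in shMETTL3 and 0.12 and 0.07 in shMETTL14. The ratio was thus higher in all 4 knockdown libraries than in shCTR, with the closest pair at 0.00 and 0.01. A processed copy of DLST, DLSTP1, had 26 to 43 reads, and reads could be split between the copies.

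SUCLG1 (ENSG00000163541, chr2:84423523-84460045, minus strand) and SUCLA2 (ENSG00000136143, chr13:47745736-48037968, minus strand) encode the alpha subunit of succinyl-CoA synthetase and its ATP-forming beta subunit. SUCLG1 was at 116 and 111 CPM in shCTR, 103 and 100 in shMETTL3 and 112 and 111 in shMETTL14. The shMETTL3 libraries were lower than all others, with a log2 fold change of -0.16 against shCTR (SE 0.0631, interval -0.30 to -0.03, edgeR adjusted p = 0.0809) that did not pass. It passed without shCTR replicate 2 (log2 -0.20, edgeR adjusted p = 0.0321), but with the correction for GC content and length it shrank to -0.04 (edgeR adjusted p = 0.616).

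SUCLA2 was at 46.1 and 40 CPM in shCTR, 45.7 and 38.6 in shMETTL3 and 40.6 and 42.1 in shMETTL14, so the replicates of shCTR and shMETTL3 spread more widely than the groups. Its log2 fold changes were -0.03 (interval -0.22 to 0.15) in shMETTL3 and -0.06 (interval -0.24 to 0.13) in shMETTL14. The log2 ratio of SUCLA2 to SUCLG1 was -1.34 and -1.47 in shCTR, -1.17 and -1.38 in shMETTL3 and -1.46 and -1.40 in shMETTL14. Both knockdowns overlapped shCTR in this ratio, and shMETTL3 lay above shMETTL14, with the closest pair at -1.38 and -1.40. As for IDH3A, the level of SUCLA2 is uncertain, since strand was not stated for the counting.

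FH (ENSG00000091483, chr1:241497603-241519761, minus strand) encodes fumarase, which hydrates fumarate to malate. It was at 176 and 163 CPM in shCTR, 168 and 155 in shMETTL3 and 180 and 168 in shMETTL14, and the groups of both knockdowns overlapped shCTR. The log2 fold change was -0.07 (interval -0.21 to 0.07) in shMETTL3 and 0.04 (interval -0.10 to 0.17) in shMETTL14.

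MDH2 (ENSG00000146701, chr7:76048051-76067508, plus strand) closes the cycle by making oxaloacetate from malate. It was at 489 and 538 CPM in shCTR, 485 and 496 in shMETTL3 and 478 and 460 in shMETTL14. The shMETTL14 libraries were the lowest, at a log2 fold change of -0.13 against shCTR (SE 0.059, interval -0.26 to -0.01, edgeR adjusted p = 0.206), and shMETTL3 gave -0.07 (interval -0.19 to 0.06). Neither passed, but without shCTR replicate 1 the shMETTL14 value did (log2 -0.20, edgeR adjusted p = 0.0428).

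For the 8 genes not called in each comparison, the 95% intervals of the log2 fold change reached from -0.30 to 0.27 in shMETTL3, from -0.28 to 0.24 in shMETTL14 and from -0.27 to 0.26 between the knockdowns. Changes to less than 0.814 or more than 1.2 of the compared level were therefore outside the intervals of these genes. Together, the 9 genes took 0.145% and 0.148% of reads in shCTR, 0.146% and 0.144% in shMETTL3 and 0.139% and 0.136% in shMETTL14. By this unscaled share, shMETTL3 overlapped shCTR. After TMM scaling, their summed level was 1478 and 1513 CPM in shCTR, 1429 and 1406 in shMETTL3 and 1391 and 1358 in shMETTL14. On that scale it was lower in all 4 knockdown libraries. Without CS it was 1208 and 1250, 1181 and 1160, and 1187 and 1155 in the same order.

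Of 8 other genes of the cycle listed, all tested, only SDHD passed, and it fell in shMETTL3. Over all genes tested, 7.73% were lower in shMETTL3 and 3.26% in shMETTL14. SDHD encodes a membrane anchor of succinate dehydrogenase, which is also complex II of the respiratory chain. It was at 98.4 and 96.2 CPM in shCTR, 73.2 and 78.4 in shMETTL3 and 87.3 and 88.2 in shMETTL14. Its log2 fold change was -0.36 (SE 0.0655, edgeR adjusted p = 0.000829) in shMETTL3, and it was lower than in shMETTL14 by the direct comparison as well (log2 -0.21, SE 0.0658, edgeR adjusted p = 0.0409).

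The call in shMETTL3 was kept without any 1 library and, at -0.23, with the correction for GC content and length. In contrast, the call between the knockdowns was lost with that correction (log2 -0.13, edgeR adjusted p = 0.104) and without any 1 of the 4 libraries compared (edgeR adjusted p up to 0.347).

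The other anchor SDHC gave -0.04 and -0.07 on the log2 scale in shMETTL3 and shMETTL14. SDHA and SDHB, the flavoprotein and the iron-sulfur subunit, gave -0.01 and 0.00, and -0.18 (edgeR adjusted p = 0.0906) and -0.09. IDH3G, the gamma subunit beside IDH3A and IDH3B, gave -0.12 and -0.10, and the value in shMETTL3 passed with the correction for GC content and length (log2 -0.21, edgeR adjusted p = 0.0101). DLD, the lipoamide dehydrogenase of several complexes, gave -0.04 and -0.18 (edgeR adjusted p = 0.0901). The latter was -0.25 without shCTR replicate 2, and it passed with the replicate block and GC correction together (log2 -0.13, edgeR adjusted p = 0.0443). Between the knockdowns DLD was at 0.14 (edgeR adjusted p = 0.15). That difference passed with only the compared groups (0.14, adjusted p = 0.0409) and with the GC correction (0.18, adjusted p = 0.0112). SUCLG2, the GTP-forming beta subunit, gave -0.10 and -0.06, and OGDHL, a paralog of OGDH with 35 to 63 reads, gave 0.36 (SE 0.255) and 0.08 (SE 0.263).

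Among genes through which pyruvate enters the cycle, 2 of 12 tested fell in shMETTL3 and 1 in shMETTL14, and 0 rose, with medians of -0.16 and -0.05. Over all genes tested, 7.73% and 3.26% were lower, with medians of 0.00 and -0.00. Of the 8095 genes expressed at least like the lowest of the 9, 13.7% and 5.14% were lower. The counts of this and the next lists are descriptions, and no set test was run. MPC1 and MPC2 form the mitochondrial pyruvate carrier. MPC2 was at 69.3 and 72.6 CPM in shCTR, 45.3 and 49.1 in shMETTL3 and 58.1 and 59.5 in shMETTL14. Its log2 fold change was -0.59 in shMETTL3 (SE 0.0704, edgeR adjusted p = 1.06e-05) and -0.27 in shMETTL14 (SE 0.0692, edgeR adjusted p = 0.0217), and it was lower in shMETTL3 than in shMETTL14 (log2 -0.32, edgeR adjusted p = 0.00494). MPC1 fell in shMETTL3 (log2 -0.26, edgeR adjusted p = 0.0134) and stood at -0.07 in shMETTL14.

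PDK4, a kinase that inhibits pyruvate dehydrogenase, and PC, which carboxylates pyruvate to oxaloacetate, were lower in shMETTL3 than in shMETTL14, with log2 differences of -0.58 and -0.29 (edgeR adjusted p = 0.0163 and 0.00718). MPC2 in shMETTL3 kept its call without any 1 library. The other calls of these genes did not. MPC1 lost it with the correction for GC content and length (log2 -0.15, edgeR adjusted p = 0.0829) and without shMETTL3 replicate 1 or 2 (log2 -0.31 to -0.22 over all libraries left out, edgeR adjusted p up to 0.169), and MPC2 in shMETTL14 without shMETTL14 replicate 1 or 2 (-0.30 to -0.24, adjusted p up to 0.25). Between the knockdowns, MPC2 lost it without shMETTL14 replicate 2 or shMETTL3 replicate 1 (-0.37 to -0.26, adjusted p up to 0.124), PDK4 without shMETTL14 replicate 1 or 2 or shMETTL3 replicate 1 (-0.73 to -0.44, adjusted p up to 0.205), and PC without any of the 4 libraries compared (-0.31 to -0.26, adjusted p up to 0.121).

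Among genes of glutamine and aspartate entry, 1 of 7 tested fell in shMETTL3 and 1 in shMETTL14, and 0 rose, with medians of -0.02 and -0.09. The shares of all genes that were lower were 7.73% and 3.26%, with medians of 0.00 and -0.00. GLUD1, glutamate dehydrogenase, fell in both, by log2 values of -0.28 and -0.29 (edgeR adjusted p = 0.00388 and 0.00697). GOT1, the cytosolic aspartate aminotransferase, was higher in shMETTL3 than in shMETTL14 (log2 0.29, edgeR adjusted p = 0.00551). GLUD1 and GLUD2 are near-identical copies, so their counts are uncertain.

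Each of these calls was lost without some library. For GLUD1 it was shMETTL3 replicate 1 in shMETTL3 (log2 -0.32 to -0.25 over all libraries left out, edgeR adjusted p up to 0.0778) and either shMETTL14 replicate in shMETTL14 (-0.31 to -0.27, adjusted p up to 0.146). For GOT1 it was replicate 1 of either knockdown (0.23 to 0.35, adjusted p up to 0.131).

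Another list held counterparts of cycle enzymes outside the cycle, malic enzymes, and citrate and dicarboxylate carriers. Among its 9 tested genes, 1 fell in shMETTL3 and 3 in shMETTL14, and 0 rose, with medians of -0.02 and -0.12. The shares of all genes that were lower were 7.73% and 3.26%, with medians of 0.00 and -0.00. IDH1, the cytosolic NADP-linked isocitrate dehydrogenase, fell by a log2 value of -0.21 in each (edgeR adjusted p = 0.0274 and 0.0461). IDH2, its mitochondrial counterpart, was at 74.5 and 84.1 CPM in shCTR, 87.5 and 90.2 in shMETTL3 and 64.8 and 64.6 in shMETTL14. It fell in shMETTL14 (log2 -0.29, edgeR adjusted p = 0.0158) and was higher in shMETTL3 than in shMETTL14 (log2 0.46, edgeR adjusted p = 0.000163). ME2, a mitochondrial malic enzyme, likewise fell in shMETTL14 (log2 -0.34, edgeR adjusted p = 0.00776) and was higher in shMETTL3 than there (log2 0.31, edgeR adjusted p = 0.00702).

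The difference of IDH2 between the knockdowns was kept without any 1 library. Its fall in shMETTL14 was lost without shCTR replicate 2 or either shMETTL14 replicate (log2 -0.38 to -0.20 over all libraries left out, edgeR adjusted p up to 0.17). ME2 lost its fall without shMETTL14 replicate 1 (-0.40 to -0.27, adjusted p up to 0.197) and its difference without replicate 1 of either knockdown (0.26 to 0.37, adjusted p up to 0.163). IDH1 lost its call in shMETTL3 with the correction for GC content and length (log2 -0.14, edgeR adjusted p = 0.0648). It also lost it without any 1 of the 4 knockdown libraries in shMETTL3 (-0.25 to -0.17, adjusted p up to 0.284) and without these or shCTR replicate 2 in shMETTL14 (-0.25 to -0.18, adjusted p up to 0.395).

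Of 9 tested genes listed under lipoate and succinate dehydrogenase assembly, 1 rose in shMETTL3 and 0 passed in shMETTL14. Over all genes, 16.5% and 6.69% passed in either direction. The gene that rose was SDHAF1, an assembly factor of succinate dehydrogenase (log2 0.31, edgeR adjusted p = 0.0489). SDHAF1 was also higher in shMETTL3 than in shMETTL14 (log2 0.33, edgeR adjusted p = 0.0444). The rise was called in only 2 of the 8 alternatives that kept every library. It was lost with DESeq2 (log2 0.30, DESeq2 adjusted p = 0.186) and with the correction for GC content and length (log2 0.21, edgeR adjusted p = 0.0913). It was also lost without shCTR replicate 1 or any 1 of the knockdown libraries (log2 0.15 to 0.47 over all libraries left out). The difference was lost with DESeq2 (log2 0.33, DESeq2 adjusted p = 0.179) and without any of the 4 libraries compared (0.29 to 0.37).

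**Figure D4:**
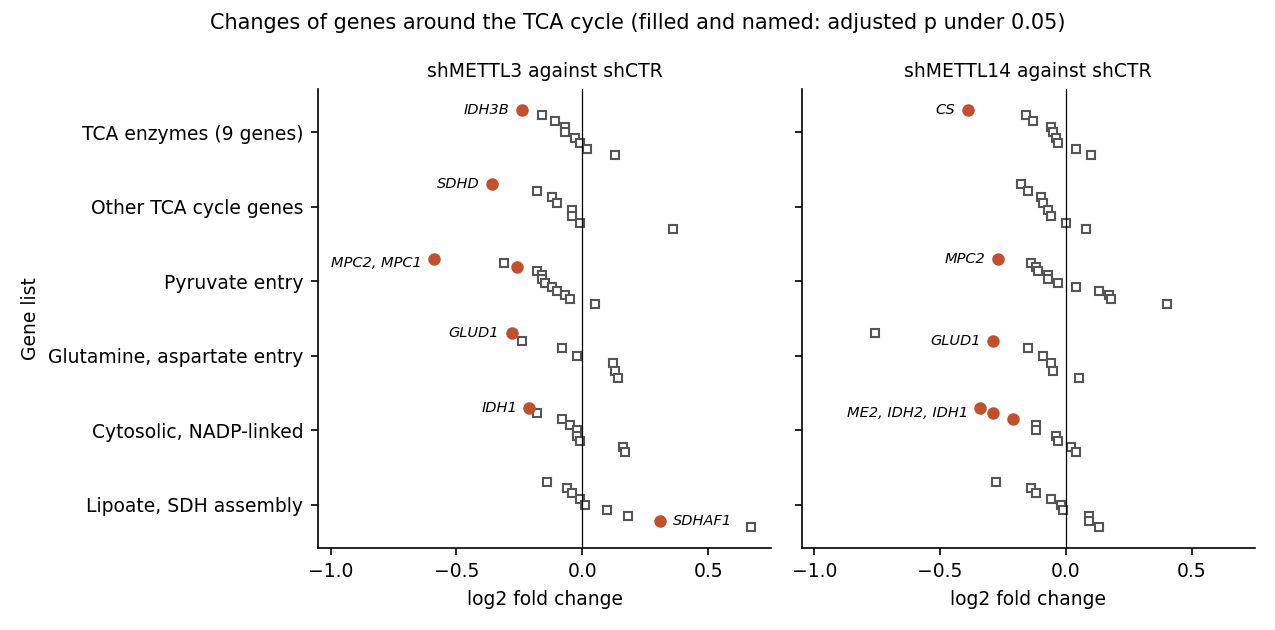
Fitted log2 fold change of each tested gene in 6 lists, for shMETTL3 and shMETTL14 against shCTR, with 1 symbol per gene, filled where the adjusted p was under 0.05 and those genes named from left to right. The 9 TCA enzymes lie between -0.24 and 0.13 in shMETTL3 and between -0.39 and 0.10 in shMETTL14, while MPC2 in shMETTL3 lies at -0.59.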

How the data were processed

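RNA-seq of K562 cells was analysed in 6 libraries of 3 groups taken from the labels. For sequencing, polyadenylated RNA was captured on oligo(dT) beads and converted to random-primed double-stranded cDNA with PCR. The authors deposited whole-number read counts per gene, not normalized. The submitters' processing notes name HTSeq 0.6.1 and hg38. The aligner, annotation and strand setting are not given in the sources used here. Symbols, lengths and coordinates came from GENCODE release 29 and a table of gene names.

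Genes with too few counts were removed by filterByExpr (minimum count 10), which left 17686. TMM scaling and the quasi-likelihood test of edgeR 4.0.16 (R 4.3.3) were applied in 1 fit over all libraries, and p-values were adjusted by Benjamini-Hochberg, with 0.05 as the threshold. The edgeR fit was tested on simulated data, and the outcome is not shown here. That test is not used as evidence for the alternatives below or for changes as small as those reported. Identifiers without a gene name held 0.635% to 0.703% of reads and were kept in the totals.

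The 9 genes and all lists were chosen with earlier results of these data known. Named were the 9, both targets, other tested cycle genes and, per list and comparison, up to 4 called genes with the largest change and at least 10 counts in every library compared. Some listed genes are not reported here and were left out of the list counts, though not of the fit. Alternatives were DESeq2 1.42.0, its size factors, library size alone, no filter, only the compared groups, the replicate number as a block, a GC and length correction (mgcv 1.9.3) and each library left out.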

Additional observations from a re-analysis of the deposited data

Results flagged for a closer look

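The knockdowns of METTL3 and METTL14 differed in the direct test for CS, with a log2 difference (shMETTL3 against shMETTL14) of 0.28, SE 0.0576 and edgeR adjusted p = 0.00264, and both shMETTL3 libraries above both shMETTL14 libraries. The same test also separated the knockdowns for IDH2 (0.46), SDHAF1 (0.33), ME2 (0.31), GOT1 (0.29), SDHD (-0.21), PC (-0.29), MPC2 (-0.32) and PDK4 (-0.58). These came from lists of 8, 12, 7, 9 and 9 tested genes, and 12.1% of all genes passed in this comparison. Of these genes, only IDH2 kept its call without any 1 library, as CS did. SDHAF1, SDHD and PDK4 lost theirs with DESeq2 as well. No second line or shRNA per target is labelled, so the target and the line that carries it cannot be told apart.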

How the results depend on the processing

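CS kept its direction and its call under all 14 alternatives in shMETTL14 against shCTR (log2 -0.41 to -0.36) and in shMETTL3 against shMETTL14 (0.27 to 0.31), and IDH3B kept its call in shMETTL3 under all 8 alternatives that kept every library (log2 -0.25 to -0.18). Of the 9 genes, the number called in shMETTL3 was 2 with the replicate block and GC correction together, which added CS, and 0 to 2 with each library left out. In shMETTL14 it was 2 with the GC correction, 3 with the block and GC correction together, which added IDH3B and MDH2, and 1 to 2 with each library left out. Over all genes, DESeq2 called 1752, 713 and 1243 in the 3 comparisons, no filter on low counts called 766 in shMETTL14, and the block with GC correction called 2165 in shMETTL14 and 3602 between the knockdowns. With each library left out, the counts were 1102 to 3569, 341 to 1913 and 942 to 2953.

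Of 952 values of single genes under the alternatives, 806 kept direction and side of the threshold, 72 lost a call, 15 gained one and 59 changed sign. Calls of MPC1, IDH1, SDHAF1, PDK4, of MPC2 in shMETTL14 and of SDHD between the knockdowns were lost also under alternatives that kept every library. None of the values that changed sign was called, and their sizes reached 0.20. In shMETTL3, library size alone gave IDH3A 0.04, SUCLA2 0.02, DLD 0.02, SDHA 0.04 and SDHC 0.01, and the GC correction, with or without the block, gave IDH3A 0.03, DLST -0.01, SUCLA2 0.04, FH 0.02 and DLD 0.05. In shMETTL14, SUCLG1 was 0.02 with the GC correction, and SDHA was -0.00 under 6 alternatives. Between the knockdowns, the GC correction gave OGDH -0.02 (-0.03 with the block) and SUCLG2 0.01, and library size alone gave IDH3G and SDHA 0.02.

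With each library left out, the ranges in shMETTL3 were -0.17 to 0.13 for IDH3A, -0.00 to 0.04 for DLST, -0.16 to 0.09 for SUCLA2, -0.13 to 0.00 for MDH2, -0.11 to 0.03 for DLD and -0.03 to 0.00 for SDHA. In shMETTL14 they were -0.12 to 0.03 for IDH3A, -0.07 to 0.00 for SUCLG1, -0.16 to 0.05 for SUCLA2, -0.02 to 0.09 for FH, -0.05 to 0.05 for SDHA and -0.20 to 0.42 for OGDHL. Between the knockdowns they were -0.12 to 0.18 for IDH3A, -0.01 to 0.08 for OGDH, -0.10 to 0.15 for SUCLA2, -0.05 to 0.02 for IDH3G, -0.10 to 0.02 for SUCLG2, -0.06 to 0.04 for SDHA and -0.01 to 0.06 for SDHC. The causes were not tested.

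The replicate numbers did not pair the libraries (correlations of deviations 0.0614, 0.0051 and -0.02), and the replicate block alone called 3264, 1459 and 2478 genes and 1 of the 9 in each comparison. With library size alone, the median log2 fold change of all genes was 0.058, 0.026 and 0.028 in the 3 comparisons, against 0.003, -0.000 and -0.002 in the main fit. With 2 libraries a group, few samples set the precision.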
